A study of Mus musculus with 1187 samples.

Results

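The genes described here are 8 components and outputs of the circadian clock, Arntl, Per1, Per2, Per3, Nr1d1, Nr1d2, Dbp and Tef, out of 46517 genes in the count table. They were chosen by name, as one gene of the activating limb and 7 genes that peak in opposition to it in rhythmic tissues, and all 8 had reads. The cells were brain endothelial cells of C57BL/6 mice, labelled adult and described as 3 months old. They carried a green reporter driven by Cldn5, a tight-junction gene of brain endothelium, and were sorted as green and without the red signal of a Cspg4 reporter, which marks pericytes. The labels name 590 Pdgfb ret/+ cells and 597 Pdgfb ret/ret cells. The ret allele lacks the motif that retains PDGF-B near the endothelium, and homozygous brains are short of pericytes.

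Each cell was 1 Smart-seq2 library, a full-length cDNA library made in a well without molecular identifiers. The table held 1187 cells in 4 plates, 300 on plate 521, 290 on plate 522, 285 on plate 523 and 312 on plate 524. Its columns name a plate and a well, and the labels name neither, so no cell could be given a genotype. The columns of plates 521 and 522 add up to 590 and those of plates 523 and 524 to 597, as many as there are labels of the first and of the second genotype. Matching totals do not identify the cells of a plate and were not used to assign genotype. No label names an animal or the time of day at which a brain was taken. Plate, genotype, animal and time of collection therefore cannot be told apart, and the 1187 cells were treated as 1 sample with no test. Intervals given below are exact 95% intervals and cover counting error only.

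Depth was similar between plates and the number of genes was not. Median reads per cell lay between 349606 and 373444 on the 4 plates, while the median number of genes with a read in 100000 reads per cell was 4156 on plate 521, 3902.5 on plate 522, 3278 on plate 523 and 3463.5 on plate 524. The endothelial marker Cldn5 stood between 3766 and 4254 reads per 1000000 (CPM) on every plate. The summed level of 9 pericyte markers was 22.6, 25.9, 140.2 and 86.4 CPM on plates 521, 522, 523 and 524. The summed level of 13 venous markers was 3019, 2378, 1045 and 956.1 CPM, that of 13 angiogenic or tip-cell markers was 1436, 885.5, 195.5 and 158.8 CPM, and that of 10 capillary markers was 5142, 6763, 9810 and 9384 CPM in the same order. The plates thus differed in the make-up of their endothelial markers, and the part of this make-up in the plate differences below was not tested. Reweighted values are given there as a description.

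The mammalian clock is a transcriptional feedback loop that runs in most cells, endothelium included. ARNTL (also called BMAL1) pairs with CLOCK and activates genes through E-boxes, among them the Per and Cry genes, whose proteins return to block the pair, and Nr1d1 and Nr1d2, whose proteins REV-ERB alpha and beta repress Arntl through response elements shared with the ROR receptors. DBP and TEF are transcription factors of the PAR bZIP family that carry the rhythm outward through D-boxes, and their genes peak with the Per genes and opposite to Arntl.

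Sequence upstream of the start sites is shown for the 4 members in which one of these letter patterns was found, since the patterns are the elements through which the loop is wired. RefSeq windows from 250 bases before to 50 bases after a start site (build GRCm38.p6) were matched for 7 of the 8 members, 10 windows in all. The motifs searched, on both strands, were the E-box CACGTG, the D-box TTANGTAA, the RORE, read as AANTN followed directly by GGTCA, and the cyclic AMP response element TGACGTCA. Capitals mark the matches, and the lines read 5′ to 3′ on the strand of the gene.
Per1, 250 bases upstream, E-box, chr11:69098699-69098948, plus strand: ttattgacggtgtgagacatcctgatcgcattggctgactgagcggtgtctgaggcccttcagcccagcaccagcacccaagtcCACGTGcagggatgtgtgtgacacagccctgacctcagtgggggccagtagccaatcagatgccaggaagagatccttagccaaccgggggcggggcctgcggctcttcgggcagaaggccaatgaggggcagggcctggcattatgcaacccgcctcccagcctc
Per3, 250 bases upstream, D-box at 2 places, chr4:151044666-151044915, minus strand: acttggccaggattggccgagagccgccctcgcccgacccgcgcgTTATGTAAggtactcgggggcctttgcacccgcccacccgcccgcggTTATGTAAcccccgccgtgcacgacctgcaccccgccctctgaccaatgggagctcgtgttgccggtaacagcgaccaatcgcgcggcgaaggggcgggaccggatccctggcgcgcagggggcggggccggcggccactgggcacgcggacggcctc
Tef, 250 bases upstream, E-box, chr15:81811164-81811413, plus strand: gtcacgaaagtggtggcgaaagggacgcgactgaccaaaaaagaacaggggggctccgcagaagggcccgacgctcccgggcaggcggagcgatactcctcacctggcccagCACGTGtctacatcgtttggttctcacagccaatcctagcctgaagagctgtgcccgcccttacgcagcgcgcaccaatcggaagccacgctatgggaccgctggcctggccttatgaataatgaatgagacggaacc
Arntl, RORE just downstream of a start site, within an annotated exon, chr7:113207530-113207555, plus strand: aaggcagaAAGTAGGTCAgggacgga

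The Per1 E-box begins 166 bases before its start site, the D-boxes of Per3 begin 205 and 158 bases before, the Tef E-box shown begins 138 bases before and the Arntl RORE begins 28 bases after. A second Tef window, at another start site, held an E-box 127 bases before it, within annotated exon, and is not printed. The windows of Dbp, Nr1d1 and Nr1d2 held none of the motifs. Of 32851 promoter windows of the same length, 7.15% held the E-box, 2.32% the D-box, 0.606% the RORE and 1.79% the cyclic AMP response element. A match is a description of letters and not evidence of binding, and a window without a match says nothing about the factor.

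Per length of annotated exon, Nr1d1 was the highest of the 8 genes and Arntl by far the lowest. Per kilobase and over all cells, Nr1d1 stood at 120.5 CPM, Dbp at 83.6, Nr1d2 at 39.8, Tef at 27.7, Per1 at 20.2, Per3 at 13.2, Per2 at 4.31 and Arntl at 0.92. Clock, the partner of Arntl, stood at 5.78 CPM per kilobase, above Per2. The order was read from 1 pooled sample, and the levels of Dbp and Nr1d1 carry an uncertainty of their own. Dbp shares 539 exon bases with Sphk2, a sphingosine kinase gene on the opposite strand, and Nr1d1 shares 263 with Thra, a thyroid hormone receptor gene on the opposite strand. No source used here says how the counting treated strand, and reads of these pairs cannot be told apart.

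Arntl, the activator, was read in few cells. Its level from summed reads was 0.53 CPM on plate 521 (95% interval 0.40 to 0.68), 0.72 on plate 522 (0.56 to 0.91), 18.3 on plate 523 (17.5 to 19.2) and 8.15 on plate 524 (7.62 to 8.70). The counting intervals of plates 523 and 524 lay above those of plates 521 and 522, a span of 34.8-fold between the highest and the lowest plate. The number of cells behind these values was small: 4, 8, 18 and 11 cells with any read, 41 in all.

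Of all Arntl reads, 78.0% came from 10 cells, and the highest single cell, on plate 523, reached 1102 CPM against a median of 0 on every plate. With each cell thinned to 100000 reads, Arntl was read in 3 of 300 cells on plate 521 (1.00%, 0.207 to 2.89), 7 of 290 on plate 522 (2.41%, 0.976 to 4.91), 13 of 285 on plate 523 (4.56%, 2.45 to 7.67) and 8 of 312 on plate 524 (2.56%, 1.11 to 4.99). The intervals of these shares overlapped between all plates. The plate span of Arntl thus rested on few cells.

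Clock, the partner of Arntl, was read far more often, in 34.2% of cells at 100000 reads. It stood at 87.7, 50.4, 80.1 and 96.5 CPM on plates 521 to 524, lowest on plate 522. Npas2, which can replace Clock in the pair, stood at 0.84 CPM over all cells and was read in 0.927% of them. Both partners were set beside Arntl only as levels, since genes of different length do not compare in CPM.

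**Figure D1:**
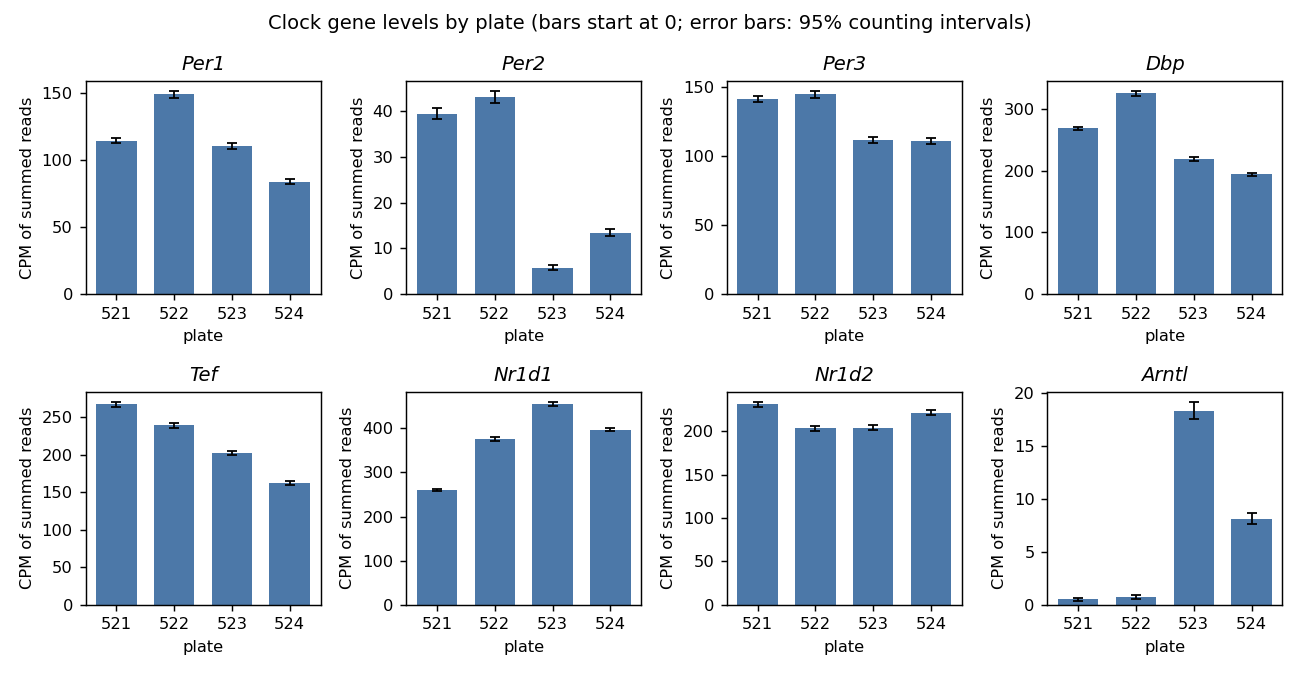
Level of each of the 8 clock genes on each plate, as CPM of the reads summed over its cells (vertical axes, each from 0), with exact 95% counting intervals. Per2 stands at 39.4 and 43.1 CPM on plates 521 and 522 and at 5.77 and 13.5 on plates 523 and 524, Arntl shows the opposite order, and Nr1d2 is nearly level.

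The 3 Per genes, the negative limb, did not vary alike. Per2 was at 39.4 CPM on plate 521 (38.2 to 40.6), 43.1 on plate 522 (41.8 to 44.4), 5.77 on plate 523 (5.32 to 6.26) and 13.5 on plate 524 (12.8 to 14.2), a span of 7.46-fold. Plates 521 and 522 were high and plates 523 and 524 low, without overlap of the counting intervals. The share of cells with a Per2 read at 100000 reads had the same order, 22.0% (17.4 to 27.1), 21.4% (16.8 to 26.6), 3.51% (1.70 to 6.36) and 6.09% (3.71 to 9.35).

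Among cells with a Per2 read, the median level was 85.8, 102.8, 41.5 and 102.4 CPM on the 4 plates, based on 76, 68, 14 and 19 cells. The plates thus differed in how many cells held Per2 reads, while cells with reads on plates 521, 522 and 524 had similar medians. The highest cell of each plate stood at 783.0, 604.4, 446.5 and 694.2 CPM. With every cluster of cells given the same weight on each plate, the levels were 38.5, 38.8, 4.22 and 10.4 CPM, a span of 9.20-fold. The clusters were made from genes that differed less than 2-fold between plates, so genes that differed more did not shape them. The weights also rest on few cells in places, as a cluster of 176 cells held 6 on plate 523 and 3 on plate 524. The part of cell make-up in the Per2 span was not tested.

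Per1, which is also induced rapidly by stimuli outside the clock, was at 114.5 CPM on plate 521 (112.4 to 116.5), 148.8 on plate 522 (146.4 to 151.3), 110.4 on plate 523 (108.4 to 112.4) and 83.9 on plate 524 (82.1 to 85.6), a span of 1.78-fold. Plate 522 was highest and plate 524 lowest, and plates 521 and 523 lay close together. At 100000 reads the share of cells with a read was 70.7%, 70.3%, 63.9% and 52.6% on plates 521 to 524. Cells ranged from 0 to 1470 CPM with medians of 58.0, 88.2, 37.4 and 9.34 CPM on the 4 plates.

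Per3 was the steadiest of the Per genes in level. It stood at 141.3, 144.3, 111.6 and 110.8 CPM on plates 521 to 524, a span of 1.30-fold that did not pass 1.5-fold. The share of cells with a read was 59.0%, 63.1%, 42.5% and 42.9%, and the medians over cells were 52.5, 69.3, 0 and 0 CPM. On plates 523 and 524 fewer cells held Per3 reads, and those that did had higher medians, 201.1 and 182.4 CPM against 163.6 and 165.8 on plates 521 and 522.

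The REV-ERB genes, repressors of Arntl, went separate ways. Nr1d1 stood at 259.9 CPM on plate 521 (256.8 to 262.9), 375.2 on plate 522 (371.4 to 379.0), 455.6 on plate 523 (451.5 to 459.7) and 396.6 on plate 524 (392.8 to 400.3), a span of 1.75-fold with plate 521 lowest. Its share of cells was nearly even, 81.3%, 83.8%, 87.0% and 85.3%, with medians over cells of 164.8, 266.5, 391.0 and 328.9 CPM. Without plate 521 the span was 1.21-fold, so that plate decided it. The overlapping Thra stood at 69.1, 108.9, 108.1 and 105.0 CPM, also lowest on plate 521.

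Nr1d2, its paralog, hardly differed between plates. The levels were 230.8, 203.5, 203.7 and 221.4 CPM, a span of 1.13-fold, and the shares of cells were 58.0%, 55.9%, 50.5% and 51.3%. Of 2513 genes above 100 CPM, 89.6% had a larger span over the plates than Nr1d2.

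The output factors Dbp and Tef resembled Per3 more than Nr1d1. Dbp was at 268.1, 324.9, 218.5 and 194.1 CPM on plates 521 to 524, a span of 1.67-fold, and was read in 82.0% (77.2 to 86.2), 86.6% (82.1 to 90.3), 62.1% (56.2 to 67.8) and 59.6% (53.9 to 65.1) of cells. Its medians over cells were 231.3, 278.7, 137.9 and 91.5 CPM and its highest cell stood at 2040 CPM. The overlapping Sphk2 was read in 84.7%, 87.6%, 65.3% and 62.5% of cells, close to Dbp on each plate.

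Tef was at 267.6, 239.4, 202.5 and 162.5 CPM, a span of 1.65-fold. It was read in 68.0%, 67.9%, 44.2% and 42.9% of cells, with medians of 148.1, 98.9, 0 and 0 CPM and a highest cell of 2330 CPM. Both output genes were highest on plate 521 or 522 and lowest on plate 524. A lower share of cells on plates 523 and 524 was common: 65.6% of the 11461 genes at 5 CPM or more had both of these plates below both of the others. Of the 8 members 6 had it, and Nr1d1 and Arntl had the opposite order, which 6.35% of genes showed. Among genes above 100 CPM the shares were 71.8% for the first order and 9.11% for the opposite one, which 8.04% of genes between 5 and 20 CPM showed. For both Nr1d1 and Arntl the counting intervals of the shares overlapped between all plates.

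**Figure D2:**
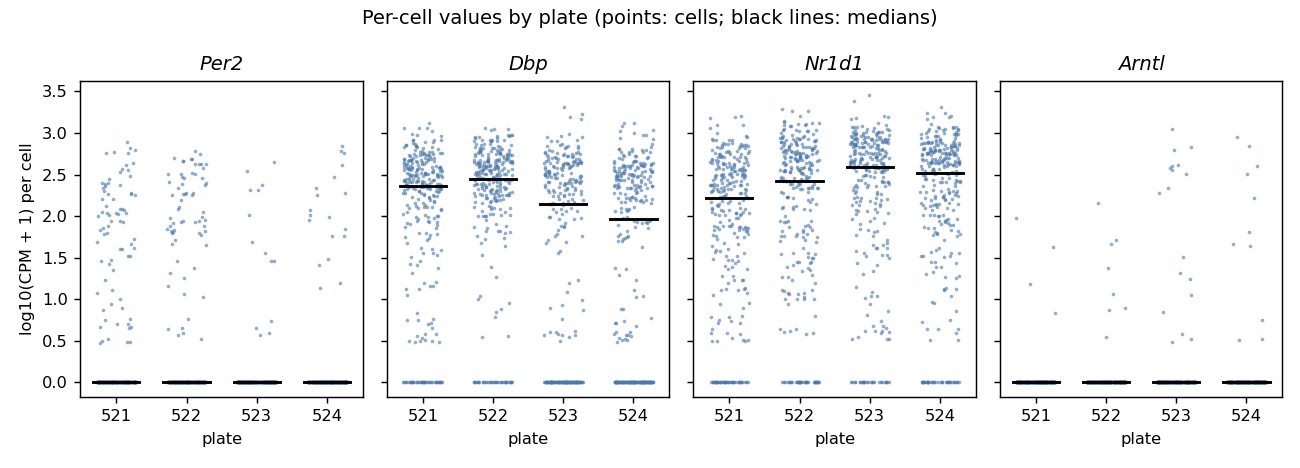
Per-cell values of Per2, Dbp, Nr1d1 and Arntl as log10(CPM + 1) on each plate; each point is a cell and each black line a plate median. Medians of Per2 and Arntl are 0 on every plate, Dbp medians run from 91.5 to 278.7 CPM and Nr1d1 medians from 164.8 to 391.0 CPM.

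The plate spans were set against those of all genes. Of the 8 genes 6 passed 1.5-fold between the highest and the lowest plate, where 53% of the 11461 genes did, and 2 passed 2-fold, where 23.2% did. Wide spans were more frequent among low genes, at 80.8% past 1.5-fold between 5 and 20 CPM, 49.3% between 20 and 100 CPM and 25.8% above 100 CPM. Of the 6 members above 100 CPM, 4 passed it: Per1, Dbp, Tef and Nr1d1. Without plate 524 only Per2, Nr1d1 and Arntl passed 1.5-fold. The span of Per1 was 1.36-fold without plate 522 and 1.35-fold without plate 524, that of Dbp 1.38-fold and 1.49-fold without the same plates, and that of Tef 1.47-fold without plate 521 and 1.32-fold without plate 524. With each cluster of cells given the same weight on every plate, Per3 came to 1.58-fold and Nr1d1 to 1.45-fold. Per2 and Arntl were far out within their own ranges of level: 0.681% of the 5727 genes between 20 and 100 CPM had a larger span than Per2, and 1.15% of the 3221 genes between 5 and 20 CPM had a larger one than Arntl. For the others the percentage of genes with a larger span was 12.2% for Per1, 12.9% for Nr1d1, 15.7% for Dbp, 16.6% for Tef and 52.7% for Per3.

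**Figure D3:**
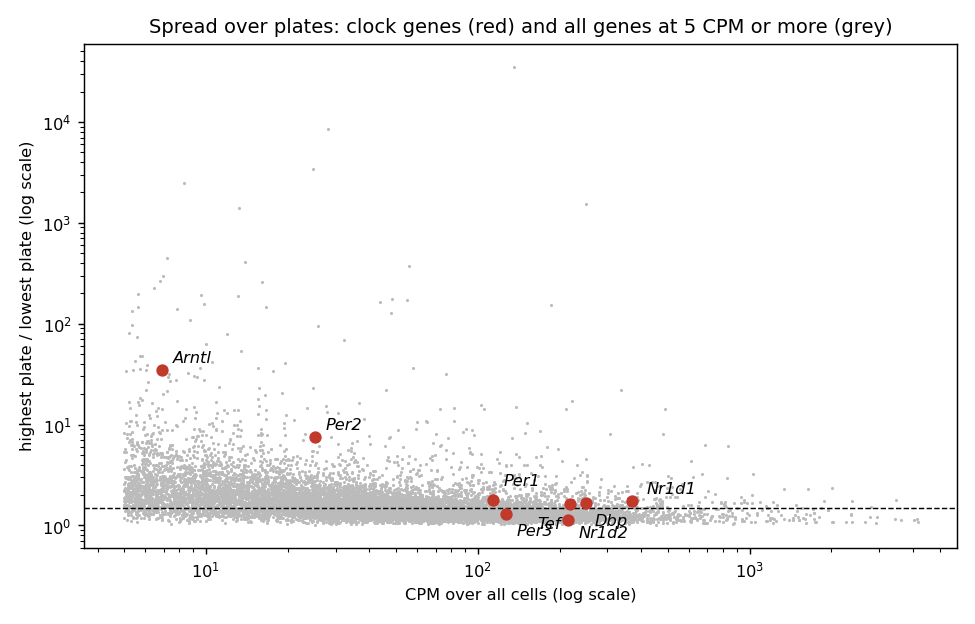
Highest over lowest plate level (vertical log axis) against CPM over all cells (horizontal log axis) for genes at 5 CPM or more with a read on every plate; the 8 clock genes are red, and the dashed line marks 1.5-fold. Per2 and Arntl lie at the upper edge of the genes of their level, and the other 6 lie within the cloud.

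In plate order, Per1, Per2, Per3, Dbp and Tef were lower on both plates 523 and 524 than on plates 521 and 522, and Nr1d1 and Arntl were higher. An order of the first kind was found in 25.7% of the 11461 genes and of the second kind in 22.2%, and this order was picked out after the values were seen. The first 5 genes thus lay opposite to Arntl in plate order, while Nr1d1 shared its order and Nr1d2 had neither. Scaled by median-of-ratios size factors, Per1 no longer had the first order, with 111.3 on plate 521 and 111.4 on plate 523. With 4 plates no correlation was computed. The ratio of Per2 to Arntl reads was 74.9, 59.9, 0.315 and 1.65 on plates 521 to 524, and that of Nr1d1 to Arntl was 493.9, 521.7, 24.9 and 48.7. Both ratios were lower on plates 523 and 524, and on each plate 10 or fewer cells held at least 98.8% of the Arntl reads.

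The wider clock list held 30 further genes, 24 of them at 5 CPM or more. Of these 14 passed 1.5-fold between plates, where 53% of all genes did, and 7 passed 2-fold, where 23.2% did, and their median span was 1.75-fold against 1.53-fold over all 11461 genes. Lower on both plates 523 and 524, an order of 25.7% of all genes, were 10 genes: Cry2, Nfil3, Hlf, Bhlhe41, Ciart, Wee1, Nampt, Ppard, Hdac3 and Nono. Higher on both, as 22.2% of all genes were, were 3, Klf10, Sirt1 and Gsk3b, and 11 had neither order.

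Several of the 10 encode clock outputs or repressors. Ciart, a repressor of the CLOCK and ARNTL pair, stood at 108.5, 153.6, 56.2 and 62.8 CPM. Hlf, the third PAR bZIP factor beside Dbp and Tef, stood at 92.3, 100.8, 45.7 and 62.5 CPM. Cry2, a partner of the PER proteins, stood at 59.2, 55.4, 35.7 and 26.3 CPM. In all 3 the values of plates 523 and 524 lay below those of plates 521 and 522, the order of Per2, Dbp and Tef.

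Other genes of the core had other orders. Cry1, the other cryptochrome, stood at 26.4, 49.8, 30.7 and 46.4 CPM, and Rora, a receptor that activates Arntl, at 119.8, 95.1, 122.7 and 99.0 CPM. Bhlhe40, a repressor at E-boxes, stood at 179.2, 198.1, 238.6 and 180.5 CPM. Timeless, a gene of replication and the clock, stood at 34.6, 71.0, 61.3 and 61.0 CPM, and Csnk1e, a kinase gene whose product marks PER proteins, at 40.1, 24.8, 36.2 and 42.7 CPM.

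Among the 10 genes lower on both plates 523 and 524, Wee1, a cell-cycle kinase gene, had the widest span of the 24 genes at 5 CPM or more, at 30.2, 21.7, 12.5 and 2.66 CPM. Nfil3, which competes with the PAR bZIP factors at D-boxes, stood at 9.96, 6.45, 3.59 and 4.07 CPM, the lowest of the listed genes that passed the minimum of 5 CPM.

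**Figure D4:**
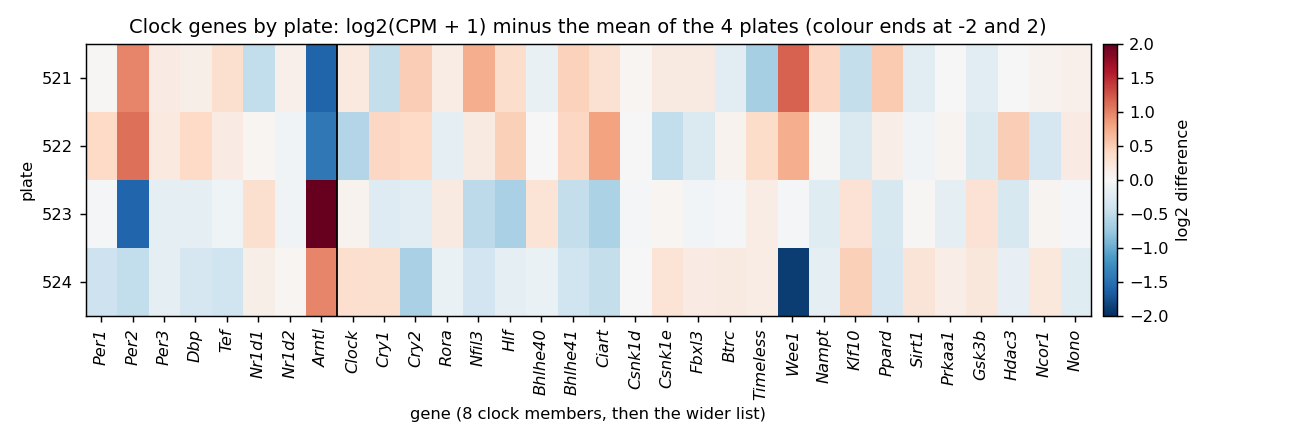
Clock genes by plate, as log2(CPM + 1) of each plate minus the mean of the 4 plates (colour, ending at -2 and 2), for the 8 members left of the line and the 24 genes of the wider list at 5 CPM or more. Per2, Wee1, Ciart, Hlf, Cry2 and Nfil3 are lower on plates 523 and 524, while Arntl is higher there and Csnk1d is level.

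Cell by cell, the genes of the loop hardly moved together. Correlations were taken over all 1187 cells from ranks within each plate, so that plate differences did not enter; the points share library depth and chance dropout, and values this low in sparse counts are given as a description. All 21 pairs among the 7 genes other than Arntl were above 0, from 0.01 to 0.17 with a median of 0.07, and 9 of the 21 were above 0 on all 4 plates. The median correlation of a member with all 11725 genes was itself above 0, from 0.0056 for Dbp to 0.025 for Nr1d2. With reads and genes per cell taken into account, 19 of the 21 were above 0, with a median of 0.06. In each of the 21 pairs, more cells held reads of both genes than the product of the shares within plates gives. The excess could be small, as for Per2 with Nr1d1, at 132 cells against 130.5. The same count was not made for other gene pairs, so it cannot be called particular to the clock genes.

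The 3 highest values involved Dbp, at 0.17 with Per3, 0.14 with Tef and 0.11 with Nr1d1, followed by Per3 with Tef and Dbp with Nr1d2 at 0.10 each. Reads of both Dbp and Per3 were held by 500 cells against 458.6 from the product of shares, and reads of both Dbp and Tef by 541 against 495.9. The Dbp and Per3 value lay between 0.14 and 0.21 on the 4 plates and the Dbp and Tef value between 0.12 and 0.17. Of the 6 other members, 5 were above the 99th percentile (0.08) of the correlations of Dbp with 11725 genes, against 2 for Per3, 1 each for Tef and Nr1d1, and none for Per1, Per2 and Nr1d2. On single plates 2, 1, 2 and 1 of the 6 lay above the percentile of the plate for Dbp.

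The overlapping partners gave much higher values, 0.81 for Dbp with Sphk2 and 0.53 for Nr1d1 with Thra. Dbp and Sphk2 were both read or both unread in 92.5% of cells, and Nr1d1 and Thra in 86.4%. Whether the same reads were counted for both genes of a pair was not tested.

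The 7 pairs with Arntl lay between -0.09 and 0.01, with 6 of the 7 below 0. Ranks within plates can show opposite phase only where the cells of a plate differ in phase. No label gives the time of collection, so opposite phase was not tested. On plates 521 to 524 alone, 4, 6, 5 and 6 of the 7 were below 0, and the highest value on plate 521 was 0.09. Correlations of Arntl with all genes were not computed, so these counts have no background. The lowest of the 7 pairs over all cells was Dbp with Arntl, of which 13 cells held both at 100000 reads against 21.4 from the product of shares. For Per2 with Arntl the numbers were 2 cells against 3.10, and for Nr1d1 with Arntl 28 against 26.4. These numbers of cells rest on 31 Arntl cells at this depth, and no test was made of them.

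Removing the plate mean before ranking gave -0.40 for Per2 with Arntl where ranks within plates gave -0.03. That value arises from its construction: most cells have no read of either gene, and subtracting a plate mean gives all these cells of a plate 1 common value, so the ranks return the plate difference. Ranks within plates were therefore used in the text and were chosen after the data were seen. The genes that the fixed rule named as most like Per2, Med18, BC068281 and Cmss1, at 0.48 to 0.49 with the mean removed first, stood at 0.06 to 0.07 within plates for the same reason.

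Per1 followed another group of genes. The fixed rule named Jun, Junos, an RNA gene beside Jun on the opposite strand, and Junb as most like Per1. Within plates these stood at 0.35, 0.34 and 0.34, with Jun between 0.29 and 0.40 on the 4 plates. All 16 immediate early genes read in at least 10% of cells, which are switched on within minutes of a stimulus, lay above the 99th percentile (0.11) of the correlations of Per1 with 11725 genes. Here too the 11725 genes were not matched in detection. The median of the 16 was 0.29, from 0.17 to 0.35, against 0.06 for Per1 with the 6 other clock genes. On single plates the median of the 16 was 0.30, 0.32, 0.28 and 0.25, and 13, 16, 14 and 14 of the 16 genes lay above the percentile of the plate.

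The other members had lower values against the same genes. The median correlation with the 16 immediate early genes was 0.07 for both Nr1d1 and Nr1d2, with 4 of 16 above the percentile for each, 0.03 for Per2, -0.01 for Per3 and for Dbp, and -0.04 for Tef, with none above it for these 4. Per1 with 9 glucocorticoid-responsive genes had a median of 0.08, with 2 above the percentile, the highest being Sgk1, a kinase gene, at 0.21. With 9 genes of the temperature response it had 0.10 with 4 above, and with 4 genes of the CREB response 0.13 with 2 above, the highest being Sik1, a kinase gene induced by cyclic AMP, at 0.26.

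**Figure D5:**
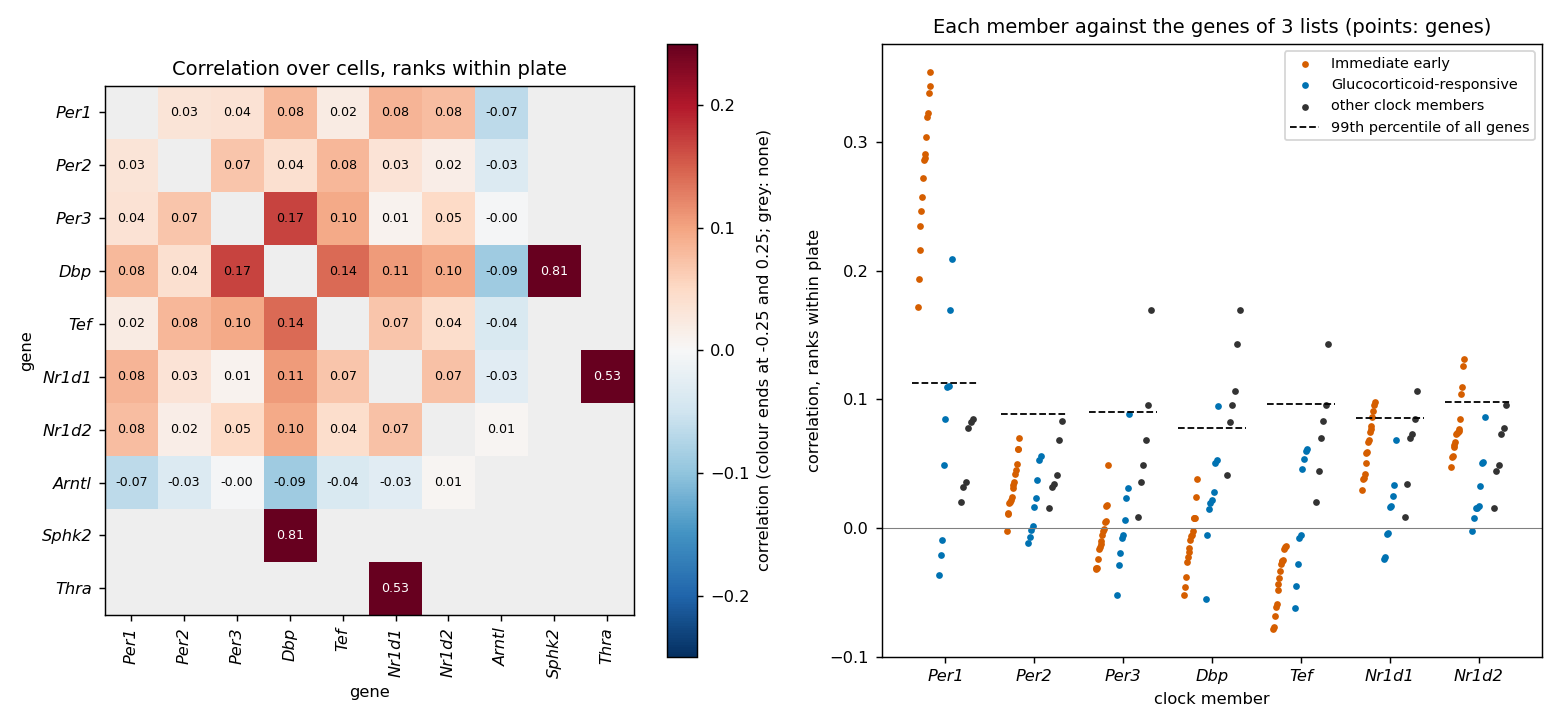
Left, correlation over cells from ranks within plate for the 28 pairs of clock genes and for the overlapping partners Sphk2 and Thra (colour ends at -0.25 and 0.25; grey, none). Right, correlation of each member read in at least 10% of cells with the genes of 3 lists (points), and the 99th percentile of its correlations with all genes (dashed): for Per1 all 16 immediate early genes lie above it, for Dbp 5 of 6 clock genes do.

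By plate, the immediate early genes did not follow Per1. Their summed level was 4864, 5816, 7093 and 6095 CPM on plates 521 to 524, and none of the 16 was lower on both plates 523 and 524 than on the others, an order of 25.7% of all genes, while 9 were higher, as 22.2% of all genes were. Dusp1, a phosphatase gene, stood at 774.4, 823.8, 1101 and 1063 CPM and Fos, a subunit of AP-1, at 579.0, 842.3, 994.6 and 855.4 CPM. The relation of Per1 to these genes within plates thus stood beside a different order between plates. Of 11 glucocorticoid-responsive genes at 5 CPM or more, 5 were higher on both plates 523 and 524, 2 were lower and 4 had neither order. Over all genes 22.2% were higher and 25.7% lower. Among the 5 was Tsc22d3, an anti-inflammatory factor gene, at 350.8, 394.4, 803.8 and 664.8 CPM. Among the 2 was Sgk1, at 514.5, 490.9, 340.7 and 370.3 CPM.

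Clock members and overlapping genes aside, the genes that the fixed rule named for the remaining members had low values. Within plates Per3 stood at 0.14 with Bst1 and 0.12 with Cdc27, Tef at 0.14 with Taok1 and 0.12 with Abhd8, Nr1d1 at 0.13 with both Chic2 and Zbtb38, and Nr1d2 at 0.16 with Fam69a, 0.14 with Scaf4 and 0.12 with Gm16062. Each of these was chosen for a high value with the plate mean removed before ranking, so its height is partly that choice. Other genes may stand higher within plates. In the number of members read per cell, of the 7 without Arntl, the median at 100000 reads was 5 on plates 521 and 522, 4 on plate 523 and 3 on plate 524, and 12 of 1187 cells had none.

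Cells were grouped into 9 clusters from variable genes that differed less than 2-fold between plates, without the clock genes. By markers, a cluster of 114 cells was angiogenic-like and a cluster of 152 cells arterial-like, and 7 stayed unnamed. Between these classes none of the 8 members passed 1.5-fold in CPM + 1, where 15.7% of genes were higher and 17% lower in angiogenic-like cells by that much. Arntl, at 5.02 CPM in angiogenic-like and 7.99 CPM in arterial-like cells (log2 ratio -0.58 with 1 CPM added), would pass without the added 1 CPM. Per1 stood at 149.8 CPM in angiogenic-like and 118.7 in arterial-like cells (log2 ratio 0.33), and Nr1d2 at 209.5 against 280.1 (-0.42). The Per1 ratio was positive on plates 521, 523 and 524 (0.46, 0.76 and 0.66) and negative on plate 522 (-0.39), and that of Nr1d2 was negative on plates 521, 523 and 524 and 0.07 on plate 522.

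Over the 9 clusters 6 of the 8 members passed 1.5-fold between the highest and the lowest, against 92.6% of all genes. By level the share was 99.3% of genes between 5 and 20 CPM, 96.1% between 20 and 100 CPM and 75.8% above 100 CPM. The members that did not pass, Dbp at 1.37-fold and Nr1d1 at 1.49-fold, were both above 100 CPM. Per2 was highest, at 51.0 CPM, in a cluster of 176 cells of which 103 were on plate 521, 64 on plate 522, 6 on plate 523 and 3 on plate 524. Within the arterial-like cells Per2 was at 44.7, 18.6, 10.9 and 10.2 CPM on the 4 plates and in the angiogenic-like cells at 44.7, 28.8, 0 and 3.73 CPM. Plates 523 and 524 were thus below plates 521 and 522 inside both named classes, which held 31, 36, 36 and 49 arterial-like and 31, 29, 21 and 33 angiogenic-like cells on the plates. In 2 unnamed clusters the order was broken: Per2 was at 40.8, 18.6, 0.971 and 24.0 CPM in one of 179 cells and at 9.79, 83.0, 0.157 and 32.8 CPM in one of 103 cells. Dbp was the most even member over clusters, from 217.3 to 297.5 CPM.

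A few cells held markers of other types. At 100 CPM or more, 26 cells had at least 3 markers of one other cell type, 9 of astrocytes, 9 of microglia and 5 of pericytes among them. Without these cells the levels were 40.2, 41.7, 5.82 and 13.6 CPM for Per2 and 0.54, 0.73, 18.4 and 8.20 CPM for Arntl on plates 521 to 524, close to the values with them. In a pooled sum, fewer cells with reads and less RNA per cell cannot be told apart.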

How the data were processed

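The deposited table holds whole-number read counts per gene and cell, made by the authors and not normalised. The submitters' processing notes name featureCounts, Subread 1.4.6-p5, TopHat2 2.1.1 and SAMtools 0.1.18, and the builds GRCm38 and mm10. Whether strand was used is not given there. Cells held 100779 to 584112 reads, 418924921 in all. Levels are CPM of counts summed over cells of a plate (python 3.11.15, pandas 2.3.3, scipy 1.17.1); shares use cells thinned to 100000 reads and Clopper-Pearson intervals, levels exact Poisson intervals. All genes at 5 CPM or more served as background. Correlations use log2(CPM + 1). Clusters were made with scanpy 1.11.5 (Leiden, resolution 1) from genes less than 2-fold apart between plates, without clock genes. No doublet caller was run. The comparison of ret/ret with ret/+ could not be made. Members and lists were chosen with earlier results of these data known. Named were all members, core genes of the wider list and those past 1.5-fold between plates, up to 4 genes of highest CPM per companion list, the 3 genes most like each member, overlapping genes and class markers. Scripts were tested on simulated data.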

Additional observations from a re-analysis of the deposited data

How the results depend on the processing

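No paired analysis was possible because the columns carry neither a genotype nor an animal. Of the 8 clock genes, 6 passed 1.5-fold between plates; the number was 3 without plate 524 and 2 at a 2-fold threshold, and it stayed within 1.5 times of 6 under each other alternative run. In the wider list 14 genes passed 1.5-fold and 7 passed 2-fold. The number of members opposite to Arntl in plate order was 5, and 4 with median-of-ratios size factors. It was 0 without the 5% of cells highest in each gene, which follows from construction, since fewer than 5% of cells held an Arntl read on 3 plates. Over clusters 6 members passed 1.5-fold, and 3 did at resolution 0.5; the causes of these shifts were not tested. Across the alternatives other than leaving out those cells, where Per2 stood at 16.3, 22.0, 0 and 0.155 CPM and Arntl at 0 on 3 plates, the plate span ran from 3.20 to 9.20-fold for Per2 and 15.5 to 55.3 for Arntl. With that alternative included it ran from 1.21 to 1.88 for Nr1d1, 1.35 to 1.98 for Per1, 1.38 to 1.89 for Dbp, 1.32 to 2.02 for Tef, 1.27 to 1.58 for Per3 and 1.09 to 1.20 for Nr1d2. Counts of pairs above or below 0 and of shares kept within 1.5 times of the reported numbers under every alternative run. Arntl was read in 31 cells at 100000 reads and in 41 without thinning. Per2 on plates 523 and 524 was read in 10 and 19 cells at 100000 reads, and in 14 and 19 without thinning. Values of these genes there rest on few cells.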
